A study of Mus musculus with 40 samples.

Results

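Monocytes sorted from colon tumors were compared with monocytes sorted from the blood of tumor-bearing mice, with 4 RNA-seq libraries on each side, 8 of the 40 libraries of the series. They were chosen by their group labels, which were checked against marker genes. The tumor group is named T_CC in the labels and the blood group T_PC. All 8 libraries came from mice labeled Cdx2CreERT2 - Apc fl/fl on a C57Bl6/Sv129 background (the digits after Sv differ from label to label), in which tamoxifen at 25 mg/kg body weight, given once into the peritoneum at 8 to 10 weeks of age, activates a Cre recombinase under the Cdx2 promoter and deletes both copies of Apc, the brake on Wnt signaling, in the intestinal epithelium. The deletion and the tamoxifen are therefore shared by both groups, and the model is limited to tumors started by the loss of 1 gene in cells in which the Cdx2 promoter is active. The study lists a single sorting panel for mouse monocytes (cells with CD45, CD11b and high Ly6C, and without EpCAM, MHCII or Ly6G), with no distinction between tumor and blood. Tissue was digested with collagenase, Dispase and DNase before sorting, while blood cells were taken after lysis of red cells. Preparation and site therefore cannot be told apart in any comparison of tumor with blood below. Blood monocytes of healthy mice (WT_PC, 4 libraries, of which the titles of 3 name 2 animals each) served as a background level. Those mice are labeled C57Bl6, carry no transgene and received no agent, so strain, transgene and agent cannot be told apart there from the tumor. The tumor and blood libraries numbered 1 carry the same code in their titles and the others different ones, and p-values measure the spread between libraries.

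Classical monocytes leave the bone marrow through the chemokine receptor CCR2, circulate for a short time with high Ly6C on the surface, and either turn into patrolling nonclassical monocytes in blood or enter tissues, where they can become macrophages or dendritic cells. In inflamed tissue and in tumors they meet microbial products, cytokines, low oxygen and dying cells, which act through NF-kappaB, hypoxia-inducible factors and stress-activated transcription factors. Such cells are studied in tumors for their release of interleukin-1 and chemokines, their support of vessel growth and their ability to restrain T cells.

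Promoter windows of RefSeq (build GRCm38.p6, 250 bases before to 50 bases after an annotated start, 5′ to 3′ on the strand of the gene) are shown for 4 genes that were higher in tumor monocytes, since they stand for NF-kappaB-linked genes and hypoxia-response genes, 2 groups with many members called higher. Capitals mark matches on either strand to a form of the NF-kappaB consensus site in the first 3 windows, and to ACGTG, the core of the hypoxia response element, in the last. The Cxcl1 window lies at chr5:90890995-90891294 (plus strand), the Cxcl2 window at chr5:90903649-90903948 (plus strand), the Nfkbia window at chr12:55492598-55492897 (minus strand) and the Bnip3 window at chr7:138909457-138909756 (minus strand).
Cxcl1: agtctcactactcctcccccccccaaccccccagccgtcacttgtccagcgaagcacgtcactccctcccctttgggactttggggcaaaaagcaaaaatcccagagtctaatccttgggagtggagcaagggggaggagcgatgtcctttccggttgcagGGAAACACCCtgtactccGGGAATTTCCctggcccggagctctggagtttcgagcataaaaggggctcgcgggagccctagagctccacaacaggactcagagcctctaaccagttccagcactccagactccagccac
Cxcl2: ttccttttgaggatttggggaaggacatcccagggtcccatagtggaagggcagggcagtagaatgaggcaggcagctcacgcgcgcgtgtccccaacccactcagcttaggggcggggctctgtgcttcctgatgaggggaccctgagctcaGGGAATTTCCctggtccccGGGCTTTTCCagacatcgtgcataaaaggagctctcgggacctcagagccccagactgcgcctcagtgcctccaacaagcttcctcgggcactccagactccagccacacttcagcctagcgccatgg
Nfkbia: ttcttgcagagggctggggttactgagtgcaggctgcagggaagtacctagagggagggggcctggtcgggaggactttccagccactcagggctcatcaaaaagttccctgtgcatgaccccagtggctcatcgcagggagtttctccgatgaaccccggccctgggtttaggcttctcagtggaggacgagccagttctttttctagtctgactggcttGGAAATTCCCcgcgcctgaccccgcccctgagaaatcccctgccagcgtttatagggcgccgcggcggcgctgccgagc
Bnip3: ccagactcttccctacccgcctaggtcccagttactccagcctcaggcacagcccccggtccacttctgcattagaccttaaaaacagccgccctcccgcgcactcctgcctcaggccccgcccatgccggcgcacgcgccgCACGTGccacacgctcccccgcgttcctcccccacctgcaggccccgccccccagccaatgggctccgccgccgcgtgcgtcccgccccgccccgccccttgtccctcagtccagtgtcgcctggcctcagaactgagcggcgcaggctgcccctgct
Cxcl1 and Cxcl2, which encode neutrophil-attracting chemokines, each held 2 matches within the 100 bases before the start, and Nfkbia, which encodes the inhibitor IkappaB-alpha, held 1 match. The 2 marked matches of Bnip3, a mitophagy gene, overlap, since CACGTG reads the same on both strands. Of 15279 symbols tested for expression, 9689 had at least 1 window, and 2.05% of these held the NF-kappaB form, 6.52% held the AP-1 letters TGANTCA and 29.3% held ACGTG. Among the genes called higher in tumor monocytes (defined next) these shares were 4.42%, 11.9% and 34.7%, and among the genes called lower they were 0.971%, 6.55% and 25.2%. In the hypoxia list ACGTG occurred in the windows of 11 of the 11 called members that had one, and in the NF-kappaB list the NF-kappaB form occurred in 4 of 9. The share among members not called was not computed, so these 2 counts describe the lists and not the change in tumor. A match to letters is a description of the window and not a bound site. For each gene shown, the first window that held its motif was taken, so the presence of a match there was fixed by the choice.

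Counts on genes totaled 12076890 to 20229439 per tumor library and 11737907 to 17914084 per blood library. Mitochondrially encoded genes took 26.4% ± 5.59 (SD, n = 4) of the counts in tumor and 22.0% ± 3.44 (SD, n = 4) in blood, a difference that did not pass a 2-sided exact permutation test (p = 0.2286, where 4 against 4 libraries allow 0.0286 at the least). On the first principal component, with 47.61% of the variance, tumor and blood libraries separated. The second, with 18.32%, set tumor library 3 (115.03) apart from the other tumor libraries (-65.93 to -49.69), and that library also had the fewest genes with a count (21246) and the highest mitochondrial share of the 8 (31.5%). Levels are given as RPKM, read numbers scaled by the authors to transcript length and to the mapped reads of the library, and tests were run on counts. Over the genes tested, the median log2 ratio of mean RPKM between tumor and blood was -0.29, against -0.03 for the edgeR fold changes, so all RPKM values below sit slightly lower in tumor than on the tested scale.

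Monocyte markers (10 genes) summed to 562 to 897 RPKM in tumor and 396 to 614 RPKM in blood. Cd14 made up 276 to 525 RPKM of that sum in tumor and 9.86 to 35 RPKM in blood, and without it the other 9 genes summed to 274 to 372 RPKM in tumor and 386 to 596 RPKM in blood, with no overlap. The median log2 fold change of the 10 genes was -0.63. Of them, 5 were lower in all tumor libraries than in any blood library, as were 16.5% of all genes tested. In edgeR 0 of the 10 were called lower (1 in limma-voom and 1 in DESeq2). Markers of other cells moved with the groups. Epithelial markers (19 genes) summed to 2.47, 58.3, 16.7 and 14.1 RPKM in tumor libraries 1 to 4, to 1.11 to 1.68 RPKM in blood, and to a mean of 298 RPKM in epithelial cells sorted from tumors. Of the 9 epithelial markers tested, 6 were called higher in tumor, against 7.76% of all genes. Among them were Epcam (0.197, 6.92, 3.78 and 2.14 RPKM in tumor, 0.00382 to 0.0721 in blood, 50.9 in sorted tumor epithelium) and Krt8 (0.11, 3.38, 0.89 and 1.02 RPKM in tumor). Erythroid markers (10 genes) summed to 743, 534, 6.38 and 29.1 RPKM in blood libraries 1 to 4 and to 1.12 to 3.77 RPKM in tumor. Of these, 5 of 6 tested were called lower in edgeR (3.89% of all genes) and in DESeq2 but 0 in limma-voom. Neutrophil markers (13 genes) summed to 60.4 to 92.2 RPKM in tumor and 104 to 281 RPKM in blood, against 19500 RPKM in blood neutrophils, and markers of immature neutrophils (10 genes, Chil3 among them) to 31.8 to 136 and 93.6 to 359 RPKM. The neutrophil list had 2 members called higher (Hdc and Il1r2) and 2 called lower (S100a8 and S100a9) of 13. Platelet markers were at 27.4 and 37.9 RPKM in blood libraries 1 and 2 and at 6 RPKM or less in the other 6 libraries. B-cell markers were at 62.4, 66.0, 18.1 and 22.7 RPKM in blood libraries 1 to 4 and at 3.69 to 14.2 RPKM in tumor. The NK-cell list stood out in blood library 3 alone (33.1 RPKM, at most 0.748 in the other 7). T-cell markers (11 genes) summed to 5.43 to 7.82 RPKM in tumor and 0.804 to 4.09 RPKM in blood, with no overlap. Fibroblast markers summed to at most 3.21 RPKM and endothelial markers to at most 1.87 RPKM, but stromal cells sorted from tumors had means of only 31.8 and 86.1 RPKM for these lists. Relative to that stroma, the median fibroblast marker was at 0.463%, 10.0%, 5.29% and 1.08% in tumor libraries 1 to 4 and at 0.133% to 0.279% in blood. In these lists 1 platelet (Ppbp), 1 B-cell (Ighm), 1 T-cell (Il7r), 1 fibroblast (Bgn) and 1 endothelial (Cdh5) gene was called. These levels move with the groups, and their part in the results was not tested. In bulk samples, fewer cells of a type and less RNA per cell cannot be told apart.

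**Figure D1:**
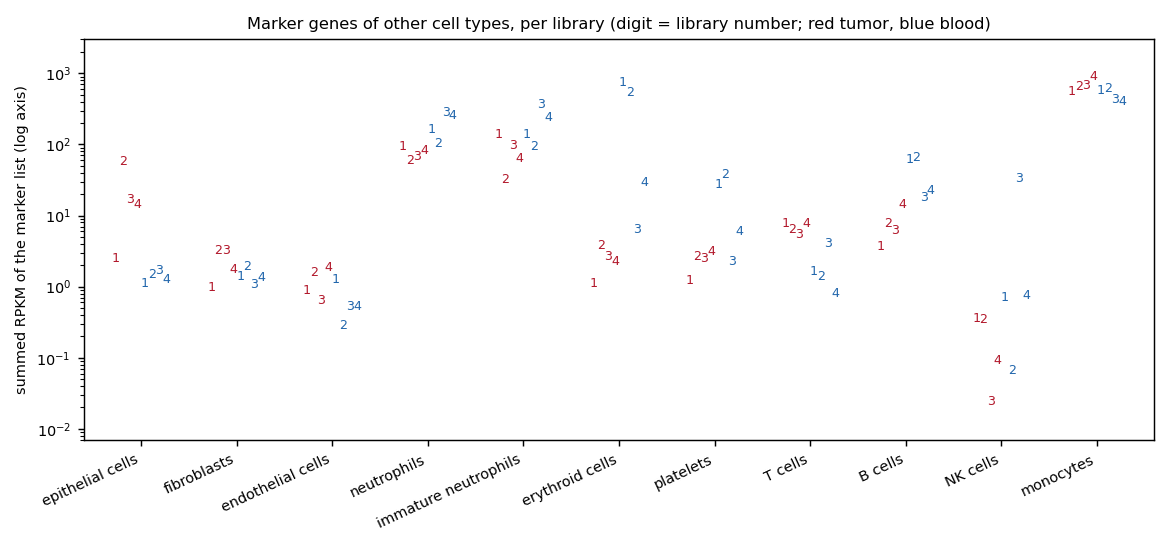
Summed RPKM of 11 marker lists (horizontal axis) in each library on a log axis; red digits are the 4 tumor libraries and blue digits the 4 blood libraries, each digit being the library number. Monocyte markers are the highest list in every tumor library, epithelial markers reach 58.3 RPKM in tumor library 2, and erythroid markers reach 743 RPKM in blood library 1.

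Of 15280 genes tested, 1781 were called, that is, passed an adjusted p-value under 0.05 with an absolute log2 fold change above 1.5 in edgeR. This is a background of 11.7% for any gene, 7.76% (1186 genes) for genes higher in tumor and 3.89% (595 genes) for genes lower. Counts of called list members, those of the marker lists above included, are to be read against these shares. RPKM did not overlap between the groups for 27.2% of the genes, 10.6% with all tumor libraries higher and 16.5% with all lower. With blood libraries 1 and 2 left out, which held most of the erythroid and platelet RNA, 1171 genes were called, and with tumor libraries 2 and 3 left out 390 genes were called lower in place of 595. On log2 RPKM with a pseudocount of 0.1, limma called 859 genes higher and 1040 lower, and with a pseudocount of 1 it called 382 higher and 143 lower. Among the 1186 genes called higher, 479 (40.4%) had a higher mean RPKM in tumor monocytes than in each of the other sorted tumor populations (neutrophils, epithelium and stroma), and 155 (13.1%) were over 10 times higher in epithelial or stromal cells.

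The 10 genes with the largest rise, among those with no overlap and an average log2 CPM, a depth-scaled count, of 5 or more, included secreted cytokines, a growth factor and enzymes. Il1a, the membrane-bound and alarmin form of interleukin-1 (chr2:129299610-129309972, mm10), was at 114, 103, 117 and 139 RPKM in tumor libraries 1 to 4 and at 0.0132, 0.0371, 0.0255 and 0.112 RPKM in blood libraries 1 to 4 (log2 fold change 11.57 ± 0.56, edgeR adjusted p = 2.18e-06). Inhba, which encodes the subunit of activin A (chr13:16011851-16031621), was at 124, 64.7, 80.6 and 160 RPKM against 0.113, 0.0562, 0.493 and 0.793 RPKM (log2 fold change 8.45 ± 0.86, edgeR adjusted p = 0.000123). Vegfa, the main vessel growth factor (chr17:46016993-46032369), was at 24.6, 29, 56.4 and 47.8 RPKM against 0.206, 0.375, 0.0248 and 0.0194 RPKM (log2 fold change 8.23 ± 0.92, edgeR adjusted p = 0.000229). A large rise without overlap was the rule that picked these 3 genes. Within each of them the tumor libraries differed from each other by less than 3-fold.

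Tgm2, a protein-crosslinking transglutaminase, was at 86.3, 88.4, 179 and 183 RPKM in tumor and 0.505, 0.729, 0.235 and 0.176 RPKM in blood (log2 fold change 8.61 ± 0.60, edgeR adjusted p = 1.2e-05). Sdc4, a cell-surface proteoglycan, was at 33.5, 29.2, 27.6 and 24.7 RPKM against 0.0975, 0.133, 0.0352 and 0.13 RPKM (log2 fold change 8.42 ± 0.42, edgeR adjusted p = 2.18e-06). Dab2, an endocytic adaptor found in tissue macrophages, was at 12.4, 18.7, 21.9 and 27.3 RPKM against 0.00703, 0.00363, 0.0223 and 0.0331 RPKM (log2 fold change 10.52 ± 0.61, edgeR adjusted p = 5.39e-06), and its mean in the other sorted tumor populations was 5.3 RPKM or less. Flrt3, an adhesion protein, was at 7.08 to 17 RPKM in tumor and 0.00523 to 0.0128 RPKM in blood. Acod1, the enzyme that makes itaconate, was at 142, 15.5, 21 and 24.3 RPKM in tumor, and Nos2, the inducible nitric oxide synthase, at 21.7, 0.619, 1.05 and 2.32 RPKM, so tumor library 1 was far above the other 3 for both (log2 fold changes 9.95 and 8.80). In blood Acod1 was at 1.16e-05 to 0.195 RPKM and Nos2 at 9.25e-05 to 0.0571 RPKM. Pnliprp1, a lipase-related protein, was at 0.209, 6.1, 13.2 and 23.2 RPKM in tumor and at 90.9 RPKM in sorted tumor epithelium, and its call was lost in limma-voom (log2 fold change 7.93, adjusted p = 0.109). Il1a, Flrt3, Dab2, Tgm2 and Inhba overlap genes on the other strand, and since it is not stated whether strand was used in counting, their reads cannot be told apart from those of the antisense genes.

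Among the 10 genes with the largest fall under the same rule, 4 were hemoglobin genes. Hbb-bs was at 223, 107, 1.64 and 9.2 RPKM in blood libraries 1 to 4 and 0.186 to 0.717 RPKM in tumor (log2 fold change -7.50), and Hbb-bt (log2 fold change -7.43), Hba-a2 (log2 fold change -6.87) and Hba-a1 (log2 fold change -6.86) were called too. In limma-voom none of the 4 was called (adjusted p from 0.156 to 0.196), and with blood libraries 1 and 2 left out the calls of Hba-a1 and Hba-a2 were lost (log2 fold change -2.17 for both). These are near-identical copies whose reads may be split between them, and the high values sat in blood libraries 1 and 2, where the other erythroid markers were high too. Ngp, a granule protein of immature neutrophils, was at 63, 22.6, 33.1 and 50 RPKM in blood and 0.116 to 1.1 RPKM in tumor (log2 fold change -6.37 ± 0.77, edgeR adjusted p = 0.000375), and at a mean of 0.0404 RPKM in healthy blood. The other immature-neutrophil genes called lower were Camp (9.76, 0.376, 3.97 and 6.12 RPKM in blood), Ltf (4.95, 2.92, 2.64 and 5.9 RPKM in blood) and Elane. Against healthy blood, 0 of the 5 members tested were called lower in tumor by edgeR and 2 were called higher. Over all genes that comparison called 718 lower and 1242 higher.

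The remaining 5 were Calhm2 (a channel protein, 5.23 to 8.94 RPKM in blood and 0.195 to 0.769 RPKM in tumor, log2 fold change -3.47), Abcd2 (a peroxisomal transporter of very long-chain fatty acids, 5.03 to 8.97 against 0.348 to 0.879 RPKM, log2 fold change -3.01), Fgd2 and Arhgap39, which regulate small GTPases (-2.96 and -2.89), and Nfe2, a transcription factor of erythroid and megakaryocytic cells (2.65 to 8.65 against 0.0203 to 0.915 RPKM, log2 fold change -3.33). The call of Nfe2 was lost without tumor library 1, blood library 1 or blood library 2 (adjusted p = 0.057, 0.0582 and 0.0537). Calhm2, Abcd2, Fgd2 and Arhgap39 kept their calls when any single library was left out, and that of Fgd2 was lost with blood libraries 1 and 2 both left out (log2 fold change -1.95, edgeR adjusted p = 0.051). Calhm2 and Arhgap39 overlap genes on the other strand.

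**Figure D2:**
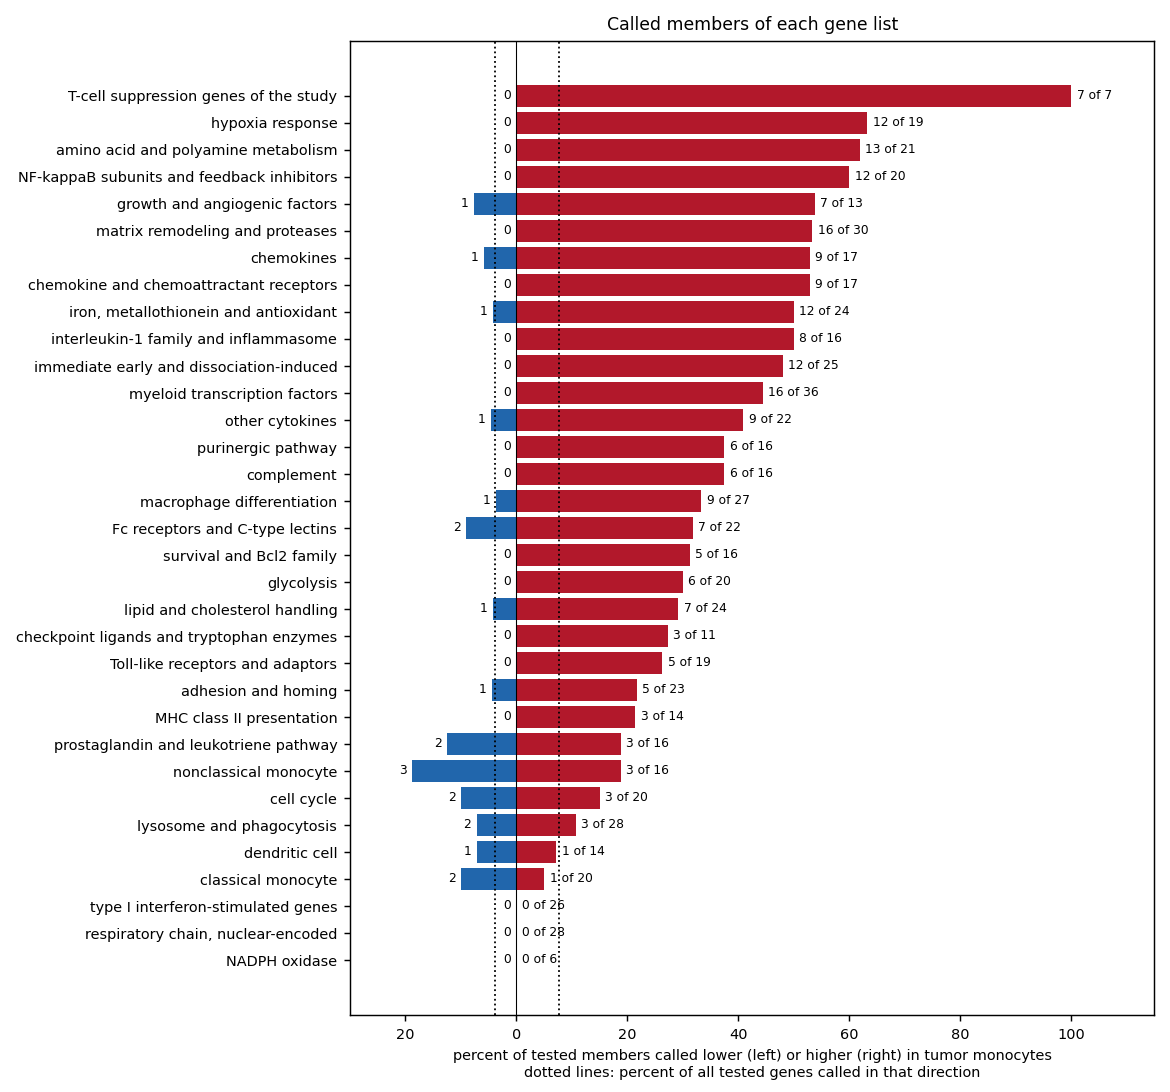
Percent of the tested members of 33 gene lists that were called higher (red, right) or lower (blue, left) in tumor monocytes, with the counts beside the bars; dotted lines give the percent of all tested genes called in that direction (7.76% higher, 3.89% lower). Hypoxia response (12 of 19), amino acid and polyamine metabolism (13 of 21) and NF-kappaB genes (12 of 20) lie far to the right, and interferon, respiratory chain and NADPH oxidase genes have no call.

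Of 20 genes of classical monocytes, 1 was called higher and 2 lower, with a median log2 fold change of -0.69 against -0.03 over all genes, and 9 had all tumor libraries below all blood libraries on the RPKM scale (background 16.5%). The surface receptor genes for recruitment were lower in each tumor library but short of the fold threshold. Ccr2, the receptor that brings monocytes into tissue, was at 23.9, 35.2, 49.5 and 31.4 RPKM in tumor and 108, 97.5, 95.1 and 89 RPKM in blood, a difference of -1.21 ± 0.24 on the log2 scale (edgeR adjusted p = 0.00667). Itga4, the alpha chain of VLA-4, was at 6.52 to 12.3 RPKM against 25.8 to 28.2 RPKM, -1.30 ± 0.24 on the log2 scale (edgeR adjusted p = 0.00448). For both genes the groups did not overlap.

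Ly6c2, the gene behind the Ly6C gate, was at 2.91, 5.72, 2.41 and 2.28 RPKM in tumor and 8.73, 9.69, 5.06 and 3.77 RPKM in blood, with overlap (log2 fold change -0.79 ± 0.38, edgeR adjusted p = 0.185), and at 13 to 81.7 RPKM in healthy blood. Chil3, a secreted chitinase-like protein, and Plac8 also overlapped between the groups, with 126, 26.7, 85.8 and 57.6 RPKM against 44.1, 62.7, 286 and 143 RPKM for Chil3 and 29.4, 40.9, 8.75 and 29.9 RPKM against 57.5, 32, 45.5 and 29.8 RPKM for Plac8. Gm9733 and Sirpb1c, of the signal-regulatory protein family, were called lower, Gm9733 at 2.89 to 8.28 RPKM in tumor and 27.8 to 40.5 RPKM in blood (log2 fold change -2.24 ± 0.35, edgeR adjusted p = 0.00161) and Sirpb1c at 7.37 to 8.04 and 21.8 to 36.2 RPKM (log2 fold change -1.61). Both belong to families of near-identical copies, and the Sirpb1c call was lost without blood library 2 (log2 fold change -1.43). Cd14, the co-receptor for lipopolysaccharide and the only classical gene called higher, was at 276, 370, 352 and 525 RPKM in tumor and 35, 18.1, 12 and 9.86 RPKM in blood (log2 fold change 4.62 ± 0.40, edgeR adjusted p = 4.36e-05).

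The nonclassical list had 3 of 16 members called higher and 3 lower (Ace, Spn and Eno3). Cx3cr1, the fractalkine receptor of patrolling monocytes, was at 0.896, 2, 5.42 and 3.78 RPKM in tumor and 13.8, 16.3, 6.22 and 7.21 RPKM in blood, without overlap and without a call (log2 fold change -1.57 ± 0.53, edgeR adjusted p = 0.0681), and without tumor library 3 it was called (log2 fold change -2.10, adjusted p = 0.0236). Ace, angiotensin-converting enzyme, was at 1.6, 2.21, 1.6 and 4.35 RPKM against 15.7, 13, 5.14 and 5.61 RPKM (log2 fold change -1.77 ± 0.43, edgeR adjusted p = 0.0171), and Spn, the sialophorin CD43, at 0.47 to 0.658 against 1.15 to 3.58 RPKM (log2 fold change -1.55). Without blood library 1 the list had no member called lower (Ace adjusted p = 0.0558, Spn adjusted p = 0.0582), and Ace was also lost without tumor library 2 (adjusted p = 0.0518). Itgax, which encodes CD11c, was higher, at 6.28, 6.83, 6.13 and 8.09 RPKM in tumor and 0.494, 0.806, 0.457 and 0.334 RPKM in blood (log2 fold change 3.95 ± 0.32, edgeR adjusted p = 2.6e-05). The other members called higher were Cebpb, a transcription factor that nonclassical monocytes need (8.93 to 18 against 2.67 to 5.86 RPKM, log2 fold change 1.81), and Bcl2a1d, a survival gene treated below. Nr4a1, the factor that defines the nonclassical line, was at 27.1, 55.9, 28.3 and 38.1 RPKM against 32.9, 35.6, 10.4 and 13.4 RPKM, with overlap (log2 fold change 0.94 ± 0.39, edgeR adjusted p = 0.129).

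**Figure D3:**
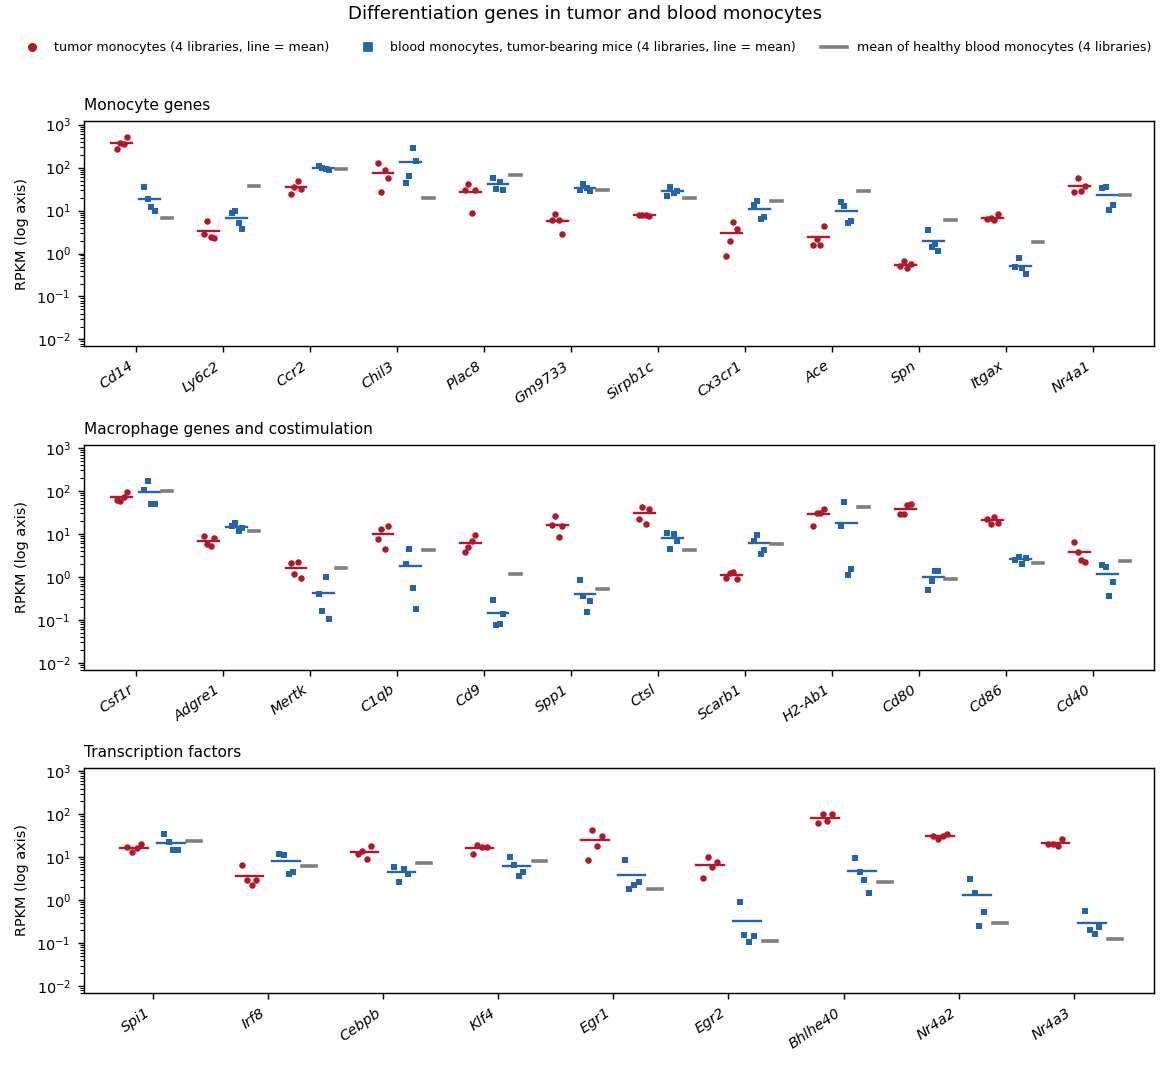
RPKM on a log axis of genes of monocytes, macrophages and costimulation, and transcription factors; red circles are the 4 tumor libraries, blue squares the 4 blood libraries of tumor-bearing mice, lines their means, and gray ticks the mean of 4 healthy blood libraries. Cd14, Itgax, Cd9, Spp1, Cd80, Cd86 and Nr4a3 lie above blood in all 4 tumor libraries, and Ccr2, Ace and Scarb1 below.

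Macrophage genes rose in part. Of 27 tested, 9 were called higher and 1 (Trem2) lower, with a median log2 fold change of 0.78. Beside Dab2, Cd9, a tetraspanin, was at 3.9, 5.1, 6.84 and 9.34 RPKM in tumor and 0.294, 0.0753, 0.0804 and 0.135 RPKM in blood (log2 fold change 5.68 ± 0.53, edgeR adjusted p = 6.63e-05). Spp1, which encodes the matrix protein osteopontin, was at 15.8, 25.9, 8.28 and 15.7 RPKM against 0.846, 0.358, 0.149 and 0.271 RPKM (log2 fold change 5.58 ± 0.55, edgeR adjusted p = 0.000103). C1qb, a chain of the first complement component, was at 7.64, 13.2, 4.42 and 15.1 RPKM against 1.96, 4.48, 0.539 and 0.183 RPKM, with overlap, and its call (log2 fold change 2.71 ± 0.81, edgeR adjusted p = 0.0424) was lost without any one of 6 libraries, the 4 tumor libraries except 3 and the blood libraries except 2 (adjusted p from 0.0567 to 0.105). C1qa, another chain, was at 0.233 to 0.671 RPKM in tumor and had at most 3 counts in each blood library. Mertk, the receptor for apoptotic cells, was at 2.13, 1.15, 2.23 and 0.928 RPKM against 0.399, 0.164, 0.993 and 0.107 RPKM, and its call (log2 fold change 2.24, adjusted p = 0.0453) was lost without any library but blood library 3 (adjusted p from 0.0522 to 0.102).

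The defining macrophage genes Adgre1 and Csf1r were not called. Adgre1, which encodes F4/80, was at 8.74, 5.7, 5.38 and 7.85 RPKM in tumor and 15.5, 17.7, 11.6 and 13.7 RPKM in blood, lower in each tumor library but short of the fold threshold (log2 fold change -0.83 ± 0.23, edgeR adjusted p = 0.0346). Csf1r, the receptor for the growth factor of macrophages, was at 60.9, 57, 72.3 and 94.1 RPKM against 106, 167, 48.9 and 50.3 RPKM, with overlap (log2 fold change -0.13 ± 0.38, edgeR adjusted p = 0.851). Of 28 lysosome and phagocytosis genes, 3 were called higher (Cd36, Gla and Ctsl) and 2 lower (Scarb1 and Tfeb). These are shares of 10.7% and 7.14%, against 7.76% and 3.89% of all genes. Ctsl, the protease cathepsin L, was at 22.5, 42.5, 17.1 and 37.9 RPKM against 10.5, 4.44, 9.84 and 6.88 RPKM (log2 fold change 2.16 ± 0.33, edgeR adjusted p = 0.00159), Gla, which degrades glycolipids, at 13.3 to 25 against 1.82 to 5.76 RPKM (log2 fold change 2.60), and Scarb1, the receptor for high-density lipoprotein, at 0.889 to 1.33 against 3.43 to 9.66 RPKM (log2 fold change -2.20).

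Genes of antigen presentation split into 2 sets. The costimulatory genes Cd80, Cd86 and Cd40 were the 3 of 14 members called higher. Cd80 was at 29.3, 28.8, 47.2 and 49.8 RPKM in tumor and 0.505, 0.801, 1.38 and 1.36 RPKM in blood (log2 fold change 5.51 ± 0.43, edgeR adjusted p = 2.36e-05), and Cd86 at 21.8, 17.5, 25.1 and 18.3 RPKM against 2.54, 2.95, 1.99 and 2.76 RPKM (log2 fold change 3.28 ± 0.25, edgeR adjusted p = 1.97e-05). Cd40 was at 6.33, 3.77, 2.51 and 2.24 RPKM against 1.91, 1.67, 0.351 and 0.749 RPKM (log2 fold change 1.95, adjusted p = 0.0311), a call lost without tumor library 1 or 2 or blood library 3 or 4 (adjusted p from 0.0542 to 0.0877). No gene of the MHC class II molecules themselves was called. H2-Ab1, the class II beta chain, was at 15.2, 30.5, 30.3 and 38.9 RPKM in tumor, although the cells were gated as MHCII-, and at 15.4, 55, 1.09 and 1.56 RPKM in blood, where libraries 1 and 2 were over 9-fold above libraries 3 and 4 (log2 fold change 0.89 ± 0.96, edgeR adjusted p = 0.575). With blood libraries 1 and 2 left out, 8 of the 14 members were called higher, and 910 genes over all. This setting was chosen after seeing the data and removes the 2 blood libraries with high H2-Ab1, so the count depends on that choice. B-cell markers were also highest in those 2 blood libraries, and their part in this was not tested. Dendritic-cell genes had 1 of 14 called higher (Ccr7) and 1 lower, 7.14% each, against 7.76% and 3.89% of all genes. The lower gene was Flt3, the receptor of dendritic-cell precursors (0.406, 0.169, 0.134 and 0.121 RPKM in tumor, 1.07, 0.39, 1.82 and 1.25 RPKM in blood, log2 fold change -2.18), with overlap. Its call was lost without any one of 6 libraries (adjusted p from 0.0516 to 0.0757), all but tumor library 1 and blood library 2. Irf8, a factor of the dendritic-cell line, was at 2.23 to 6.51 RPKM against 4.01 to 12.1 RPKM (log2 fold change -0.85 ± 0.43, edgeR adjusted p = 0.215).

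Of 36 transcription factors of myeloid cells, 16 were called higher and 0 lower (background 3.89%, 2 at an unadjusted p under 0.05, 0 in limma-voom, 1 in DESeq2). Against healthy blood, 14 were called higher and 2 lower, where over all genes 1242 were called higher and 718 lower. Stimulus-response factors were among the 16 called higher. Nr4a3 and Nr4a2, orphan nuclear receptors induced by many signals, were at 20.1, 20.5, 18.5 and 26.1 and at 31, 27.4, 30.9 and 35 RPKM in tumor libraries 1 to 4, and at 0.556, 0.2, 0.168 and 0.241 and at 3.14, 1.46, 0.247 and 0.534 RPKM in blood libraries 1 to 4. Their log2 fold changes were 6.46 (edgeR adjusted p = 7.5e-06) and 4.83 (edgeR adjusted p = 0.000893), and all tumor libraries were above all blood libraries for both. Bhlhe40, a repressor linked to macrophage proliferation and cytokine output, was at 61.4, 101, 69.7 and 99.9 RPKM against 9.79, 4.53, 2.99 and 1.48 RPKM (log2 fold change 4.42 ± 0.50, edgeR adjusted p = 0.00026). Egr2, an early growth response factor, was at 3.34, 10.1, 5.97 and 7.72 against 0.92, 0.158, 0.105 and 0.147 RPKM (log2 fold change 4.62), and Egr1 at 8.55, 44.1, 17.9 and 31.3 against 8.84, 1.85, 2.27 and 2.61 RPKM (log2 fold change 2.97), with blood library 1 at the level of tumor library 1. Klf4, which monocytes need to form, was at 11.7 to 19.6 against 3.65 to 10.4 RPKM (log2 fold change 1.67, 1.47 and not called without blood library 3). Spi1, which encodes the lineage factor PU.1, was at 13.1 to 20.4 RPKM in tumor and 14.7 to 35.8 RPKM in blood (log2 fold change -0.12 ± 0.28, edgeR adjusted p = 0.813).

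The interleukin-1 family and inflammasome list had 8 of 16 members called higher and 0 lower (1 at an unadjusted p under 0.05, 0 in limma-voom, 1 in DESeq2). Il1b, the secreted form made by activated monocytes, was at 339, 419, 367 and 443 RPKM in tumor and 5.35, 10.6, 2.51 and 5.06 RPKM in blood (log2 fold change 6.30 ± 0.44, edgeR adjusted p = 1.22e-05). Il1rn, the receptor antagonist, was at 147, 145, 114 and 207 RPKM against 1.37, 2.64, 0.92 and 1.03 RPKM (log2 fold change 6.92 ± 0.42, edgeR adjusted p = 7.22e-06), and Il1r2, the decoy receptor, at 12.1, 17.2, 12.5 and 22.2 against 0.406, 0.259, 3 and 1.03 RPKM (log2 fold change 3.99 ± 0.71, edgeR adjusted p = 0.0035). Agonists and inhibitors of the pathway stood high in the same 4 libraries. Nlrp3, the sensor of the inflammasome that matures interleukin-1 beta, was at 46.4, 52.4, 50.2 and 53.3 RPKM against 5.94, 5.04, 4.79 and 5.57 RPKM (log2 fold change 3.50 ± 0.18, edgeR adjusted p = 2.18e-06). Il1b overlaps the antisense gene Il1bos.

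Of 22 other cytokine genes, 9 were called higher and 1 (Il16) lower. Tnf was at 32, 14.6, 11.6 and 16.3 RPKM in tumor and 3.52, 4.99, 1.36 and 1.37 RPKM in blood (log2 fold change 3.00 ± 0.51, edgeR adjusted p = 0.00267). Osm and Lif, both of the interleukin-6 family, were at 11.9, 29.8, 19.7 and 24.3 and at 3.96, 5.57, 4.58 and 8.17 RPKM in tumor, and at 3.42, 1.27, 0.437 and 1.43 and at 0.241, 0.417, 0.0186 and 0.00755 RPKM in blood (log2 fold changes 3.97 and 5.26). Il6 was at 2.49, 5.29, 4.62 and 3.2 RPKM against 0.712, 0, 0.00171 and 0.0448 RPKM (log2 fold change 4.67, adjusted p = 0.0316), with 1 high blood library, and its call was lost without tumor library 2, 3 or 4 or blood library 4 (adjusted p from 0.0506 to 0.0806). Csf1, the macrophage growth factor, was at 1.55, 0.752, 1.51 and 1.59 RPKM against 0.161, 0.0983, 0.244 and 0.12 RPKM (log2 fold change 3.38). Tgfb1 was at 17.4, 14.5, 13 and 27.5 RPKM against 19.8, 22.4, 7.44 and 7.76 RPKM, with overlap (log2 fold change 0.59 ± 0.39, edgeR adjusted p = 0.334).

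Chemokine genes were called higher for 9 of 17 and lower for 1, Ppbp, a platelet chemokine (21.4, 33.6, 0.559 and 4.34 RPKM in blood, 0.0409 to 0.269 RPKM in tumor) that was highest in the 2 blood libraries with the most platelet markers. The attractants of neutrophils were among them. Cxcl2 was at 82.5, 210, 132 and 262 RPKM in tumor and 5.87, 0.574, 0.263 and 2.89 RPKM in blood (log2 fold change 6.43 ± 0.93, edgeR adjusted p = 0.00112). Cxcl3 was at 9.68, 26.4, 22.9 and 25.1 RPKM against 0.378, 0.0441, 0.0188 and 0.147 RPKM (log2 fold change 7.42 ± 0.81, edgeR adjusted p = 0.000192), and Cxcl1 at 4.55, 10.9, 5.3 and 15.9 RPKM against 0.455, 0.00495, 0.00958 and 0.0686 RPKM (log2 fold change 6.30 ± 1.03, edgeR adjusted p = 0.00229). For all 3 genes the mean in tumor neutrophils was above that in tumor monocytes (658, 81.2 and 17.1 RPKM). Cxcl10, a T-cell attractant, was at 382, 24.4, 21.1 and 23.3 RPKM in tumor, with library 1 over 15 times the others, and at 3.61, 0.942, 0.481 and 0.557 RPKM in blood (log2 fold change 6.67 ± 1.27, edgeR adjusted p = 0.00522), and it overlaps Art3 on the other strand. Ccl2, the ligand of CCR2, was at 12.8, 30.5, 57.8 and 20.6 RPKM against 7.73, 7.08, 1.55 and 1.09 RPKM (log2 fold change 3.11 ± 0.70, edgeR adjusted p = 0.0126), whereas Ccl3 overlapped between the groups (36, 59.9, 138 and 57.7 RPKM against 72.8, 59.3, 7.47 and 14 RPKM, 1.24 ± 0.67 on the log2 scale (edgeR adjusted p = 0.24)).

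Receptors for chemokines and chemoattractants had 9 of 17 called higher and 0 lower (2 at an unadjusted p under 0.05, 1 in limma-voom, 1 in DESeq2). C5ar1, the receptor of complement fragment C5a, was at 43.8, 39.8, 75 and 78.5 RPKM in tumor and 3.47, 2.4, 5.73 and 2.78 RPKM in blood (log2 fold change 4.31 ± 0.38, edgeR adjusted p = 4.85e-05), and C3ar1, that of C3a, at 11.3, 17.2, 28.4 and 25.7 against 1.15, 0.498, 0.95 and 0.539 RPKM (log2 fold change 5 ± 0.41, edgeR adjusted p = 3.13e-05). Cxcr4, the retention receptor for CXCL12, was at 45.4, 42.1, 65.3 and 51.6 RPKM against 4.63, 12.3, 6.9 and 3.52 RPKM (log2 fold change 3.16 ± 0.41, edgeR adjusted p = 0.000556). Ccrl2, a receptor that presents chemerin, was at 45.9 to 80.7 RPKM against 0.976 to 7.04 RPKM (log2 fold change 4.57), and Ptafr, the receptor of platelet-activating factor, at 39.2 to 77.2 RPKM against 5.91 to 10.2 RPKM (log2 fold change 3.08). Adhesion genes had 5 of 23 called higher and 1 (Spn) lower. Thbs1, which encodes thrombospondin-1, was at 175, 182, 219 and 417 RPKM against 7.36, 7.75, 3.28 and 2.69 RPKM (log2 fold change 5.81 ± 0.47, edgeR adjusted p = 2.6e-05), and Cd44, the hyaluronan receptor, at 165, 147, 264 and 208 against 48.3, 90, 43.2 and 41.9 RPKM (log2 fold change 2.08 ± 0.32, edgeR adjusted p = 0.00158). Icam1 was at 27.2, 16.2, 17.6 and 15.3 RPKM against 6.91, 14.6, 3.55 and 4.24 RPKM (log2 fold change 1.64, adjusted p = 0.0274), a call lost without tumor library 1 or blood library 1, 3 or 4 (adjusted p from 0.0653 to 0.0868). Itgb7, of the gut-homing integrin, was at 5.85 to 8.76 RPKM against 9.6 to 17.7 RPKM without a call (log2 fold change -0.61 ± 0.23, edgeR adjusted p = 0.0956).

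**Figure D4:**
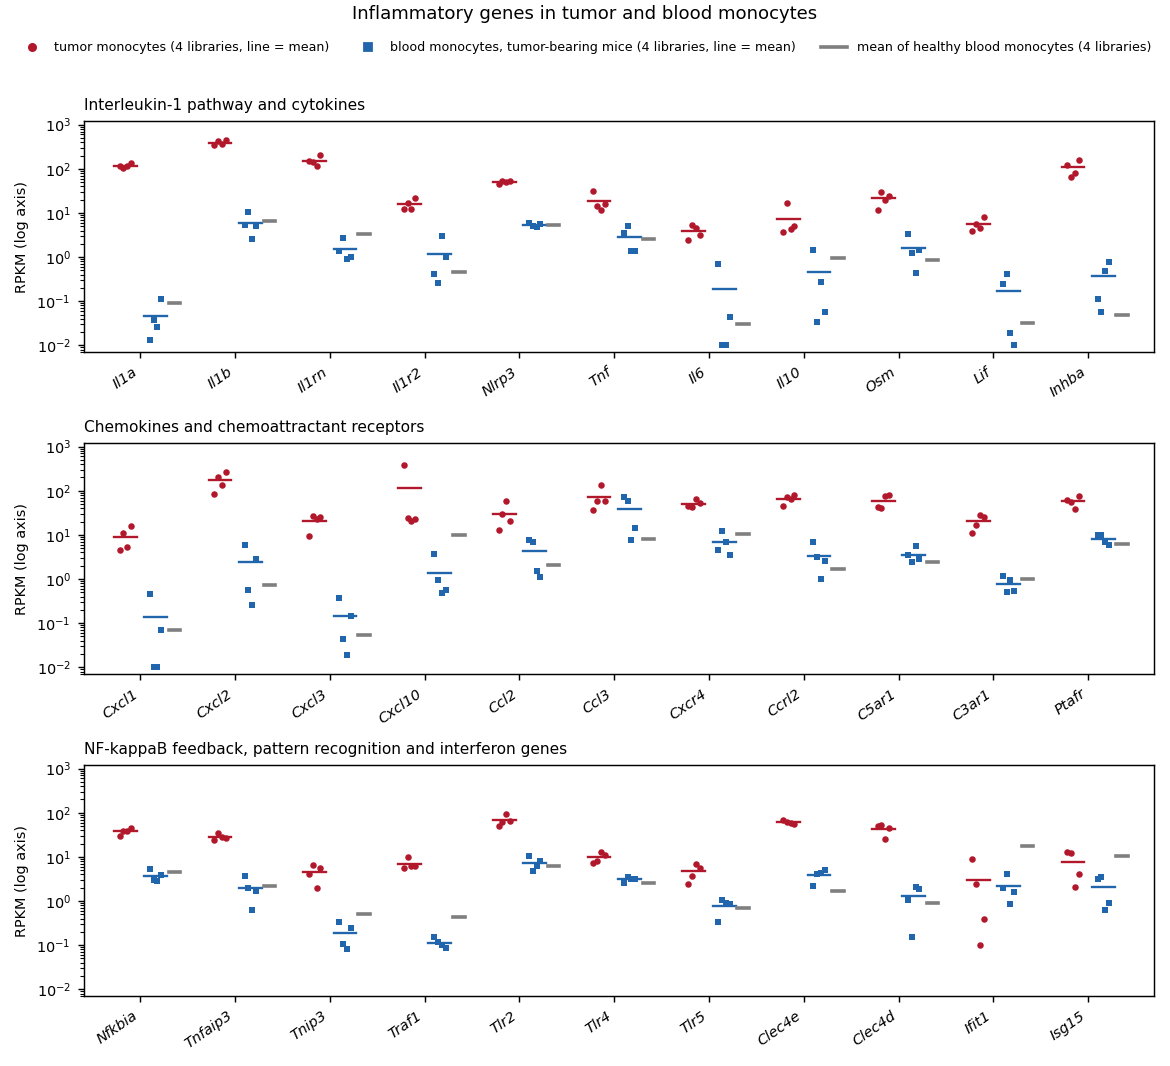
RPKM on a log axis of genes of the interleukin-1 pathway and cytokines, chemokines and their receptors, and NF-kappaB, pattern-recognition and interferon genes; red circles are the 4 tumor libraries, blue squares the 4 blood libraries, lines their means, gray ticks the healthy blood mean, and values under 0.01 are drawn at 0.01. Tumor points lie above all blood points for Il1a, Il1b, Nlrp3 and Nfkbia, and tumor and blood points mix for Ccl3 and Ifit1.

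NF-kappaB subunits and feedback inhibitors were called higher for 12 of 20 members and lower for 0 (0 at an unadjusted p under 0.05, 0 in limma-voom, 0 in DESeq2), and 14 of the 20 had all tumor libraries above all blood libraries (background 10.6%). Nfkbia, whose promoter window is shown above, was at 29.8, 39.5, 39 and 44.6 RPKM in tumor and 5.23, 3.04, 2.88 and 3.83 RPKM in blood (log2 fold change 3.61 ± 0.25, edgeR adjusted p = 1.05e-05). Tnfaip3, which encodes the deubiquitinase A20, was at 24.4, 35.1, 28.5 and 26.8 RPKM against 3.65, 1.96, 0.635 and 1.65 RPKM (log2 fold change 4.14 ± 0.44, edgeR adjusted p = 0.000172). Traf1, a signaling adaptor, was at 5.53, 9.67, 6.2 and 6.26 RPKM against 0.15, 0.117, 0.101 and 0.0875 RPKM (log2 fold change 6.17 ± 0.29, edgeR adjusted p = 2.18e-06). Inhibitors and subunit genes rose together. Tnip3, which binds A20, had a log2 fold change of 4.80 and Nfkb1, the p50 precursor, one of 1.91 (13.7 to 18.9 RPKM against 4.19 to 5.63 RPKM).

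Toll-like receptors and adaptors had 5 of 19 members called higher and 0 lower (2 at an unadjusted p under 0.05, 0 in limma-voom, 0 in DESeq2), all of them receptors or co-receptors for bacterial products. Tlr2, for lipoproteins, was at 50.5, 60.4, 91.2 and 65.6 RPKM in tumor and 10.3, 4.75, 6.24 and 7.87 RPKM in blood (log2 fold change 3.48 ± 0.30, edgeR adjusted p = 4.36e-05). Tlr4, for lipopolysaccharide, was at 7.26 to 12.7 against 2.54 to 3.57 RPKM (log2 fold change 1.92), Tlr5, for flagellin, at 2.48, 3.75, 6.93 and 5.7 against 0.327, 1.03, 0.879 and 0.866 RPKM (log2 fold change 2.85), and Nod2, for muramyl dipeptide, at 5 to 8.58 against 1.15 to 1.96 RPKM (log2 fold change 2.33). The fifth was Cd14. Fc receptors and C-type lectins had 7 of 22 called higher and 2 (Clec4a1 and Trem2) lower. Clec4e and Clec4d, which encode the fungal and mycobacterial glycolipid receptors Mincle and MCL, were at 68.5, 60.8, 57.6 and 56.7 RPKM and at 48.8, 51.8, 25 and 44.6 RPKM in tumor, and at 2.15, 4.13, 4.2 and 4.92 RPKM and at 1.05, 0.155, 2.08 and 1.89 RPKM in blood (log2 fold changes 4.23 and 5.27). Trem1, an amplifier of inflammatory signals, was at 13.9, 25.5, 55.7 and 23.7 RPKM against 0.694, 1.09, 0.832 and 0.385 RPKM (log2 fold change 5.59 ± 0.54, edgeR adjusted p = 8.48e-05). Fcgr2b, the inhibitory Fc receptor, was at 20.3 to 28.3 RPKM against 10.2 to 17.1 RPKM, without overlap and short of the fold threshold (log2 fold change 1.16 ± 0.24, edgeR adjusted p = 0.00831). Complement genes had 6 of 16 called higher, the 3 C1q chains, both anaphylatoxin receptors and Itgax, and 0 lower (1 at an unadjusted p under 0.05, 0 in limma-voom, 0 in DESeq2). C3 itself was at 31 to 67 RPKM in tumor and 56.3 to 81.4 RPKM in blood (log2 fold change -0.24 ± 0.22, edgeR adjusted p = 0.507).

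Type I interferon-stimulated genes differed from this pattern. Of 26 tested, 0 were called in either direction, with a median log2 fold change of -0.15 (edgeR unadjusted p under 0.05 for 1 higher and 0 lower, limma-voom calls 0, DESeq2 calls 1 higher and 0 lower). Ifit1, an antiviral protein, was at 8.77, 2.41, 0.0986 and 0.397 RPKM in tumor and 2.02, 4.16, 0.875 and 1.57 RPKM in blood (log2 fold change 0.70 ± 1.03, edgeR adjusted p = 0.695), and the spread among tumor libraries exceeded that between the groups. Isg15, a ubiquitin-like modifier, was at 13.1, 12, 2.08 and 4.08 RPKM against 3.22, 3.52, 0.616 and 0.921 RPKM (log2 fold change 2.17 ± 0.71, edgeR adjusted p = 0.0617), with tumor libraries 1 and 2 high, and it passed without tumor library 3 (log2 fold change 2.46, adjusted p = 0.0334). In healthy blood monocytes Ifit1 was at 7.23 to 23 RPKM and Isg15 at 5.22 to 18.7 RPKM. Against healthy blood 15 of the 26 genes were called lower in tumor monocytes, with a median log2 fold change of -1.78. Over all genes that comparison called 718 lower and 1242 higher. In blood, 4 of the 26 were called lower in tumor-bearing than in healthy mice (median -1.59), where 0.209% of all genes (32 of 15313) were called in either direction.

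Hypoxia-response genes had 12 of 19 members called higher and 0 lower (0 at an unadjusted p under 0.05, 0 in limma-voom, 0 in DESeq2), with a median log2 fold change of 2.43. All tumor libraries were above all blood libraries for 14 of 19 (background 10.6%). Beside Vegfa, Hilpda, a lipid-droplet protein induced by low oxygen, was at 9.57, 15, 11.9 and 22.9 RPKM in tumor and 0.0548, 0.494, 0.283 and 0.0328 RPKM in blood (log2 fold change 6.31 ± 0.78, edgeR adjusted p = 0.000437). Egln3, an oxygen-sensing prolyl hydroxylase, was at 5.25, 3.05, 11.4 and 8.53 RPKM against 0.676, 0.0892, 0.485 and 0.59 RPKM (log2 fold change 4.23 ± 0.65, edgeR adjusted p = 0.0015), and Bnip3 at 1.34, 0.779, 1.51 and 1.72 against 0.147, 0.0735, 0.298 and 0.167 RPKM (log2 fold change 3.21 ± 0.57, edgeR adjusted p = 0.00326). The order of the libraries differed between these genes, and no tumor library was at the blood level for any of them. Ero1l, an oxidase of protein folding, was at 15.1 to 45.7 against 3.04 to 3.53 RPKM (log2 fold change 3.58), Mxi1, an antagonist of Myc, at 6.06 to 9.36 against 0.855 to 1.48 RPKM (log2 fold change 3.00), and Hmox1, which degrades heme, at 85.3, 20.4, 22.7 and 51.5 against 8.85, 9.16, 6.37 and 5.06 RPKM (log2 fold change 2.88 ± 0.46, edgeR adjusted p = 0.00205).

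In glycolysis 6 of 20 genes were called higher and 0 lower (0 at an unadjusted p under 0.05, 0 in limma-voom, 0 in DESeq2), and 10 of 20 had all tumor libraries above all blood libraries (background 10.6%). The called genes act in glucose entry, in control and in lactate export, beside Pgk1, whose many copies in the genome make its level uncertain. Slc2a1, the glucose transporter GLUT1, was at 45, 37.8, 69.8 and 69.6 RPKM in tumor and 3.65, 4.74, 2.88 and 2.32 RPKM in blood (log2 fold change 4.30 ± 0.33, edgeR adjusted p = 2.25e-05). Pfkfb3, which makes the activator of phosphofructokinase, was at 12.4, 10.1, 9.37 and 9.19 RPKM against 2.21, 1.94, 1.22 and 1.43 RPKM (log2 fold change 2.86 ± 0.24, edgeR adjusted p = 3.7e-05), and Hk2, a hexokinase, at 17, 11, 9.41 and 13.3 against 5.68, 2.1, 2.14 and 2.84 RPKM (log2 fold change 2.27 ± 0.34, edgeR adjusted p = 0.00132). Pfkp, the platelet-type phosphofructokinase, was at 6.13 to 11.2 RPKM against 2.65 to 3.24 RPKM (log2 fold change 1.76), and Slc16a3, the lactate exporter MCT4, at 5.21 to 7.75 against 0.509 to 1.49 RPKM (log2 fold change 3.01). Ldha, lactate dehydrogenase, was listed at 0.195 to 0.448 RPKM in tumor and 0.101 to 0.126 RPKM in blood, low for an abundant gene with many processed copies in the genome, so its level is uncertain (log2 fold change 1.66 ± 0.56, edgeR adjusted p = 0.0674). Of 28 nuclear genes of the respiratory chain 0 were called in edgeR (0 at an unadjusted p under 0.05, 0 in limma-voom, 0 in DESeq2), with a median log2 fold change of -0.08.

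In lipid handling 7 of 24 genes were called higher and 1 lower. Abca1, the cholesterol exporter, was at 25.1, 16.5, 27.6 and 26.9 RPKM in tumor and 0.85, 0.623, 0.741 and 0.619 RPKM in blood (log2 fold change 5.36 ± 0.27, edgeR adjusted p = 2.18e-06). Olr1, the receptor for oxidized lipoprotein, was at 34.5, 18.7, 39.5 and 21.1 RPKM against 1.37, 0.299, 1.83 and 1.4 RPKM (log2 fold change 4.83 ± 0.55, edgeR adjusted p = 0.000274), and Dgat2, which makes triglycerides, at 4.34 to 8.41 against 0.637 to 1.32 RPKM (log2 fold change 2.84). The 1 gene lower was Lpl, lipoprotein lipase (0.0768, 0.285, 0.0512 and 0.0241 RPKM in tumor, 1.9, 1.43, 0.432 and 0.383 RPKM in blood, log2 fold change -3.00, adjusted p = 0.0265), whose call was lost without tumor library 1, 3 or 4 or blood library 1 or 2 (adjusted p from 0.0534 to 0.0758).

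Amino acid and polyamine genes were called higher for 13 of 21 members and lower for 0 (0 at an unadjusted p under 0.05, 0 in limma-voom, 0 in DESeq2). Slc7a11, the cystine transporter that feeds glutathione synthesis, was at 30.3, 27.5, 57.3 and 27.7 RPKM in tumor and 0.0921, 0.162, 0.138 and 0.201 RPKM in blood (log2 fold change 8.18 ± 0.47, edgeR adjusted p = 5.39e-06). Slc7a2, an arginine transporter, was at 4.56, 1.01, 5.03 and 2.26 RPKM against 0.0324, 0.0109, 0.0932 and 0.0565 RPKM (log2 fold change 6.37 ± 0.77, edgeR adjusted p = 0.000378), and Odc1, the first enzyme of polyamine synthesis, at 0.537 to 1.34 against 0.0346 to 0.115 RPKM (log2 fold change 3.76). In the iron, metallothionein and antioxidant list 12 of 24 were called higher and 1 (G6pdx) lower. Fth1, the ferritin heavy chain, was at 330, 548, 300 and 710 RPKM against 70.9, 48.9, 38.2 and 31.1 RPKM (log2 fold change 3.56 ± 0.33, edgeR adjusted p = 6e-05), with processed copies in the genome that may share its reads. Srxn1 and Txnrd1, which reduce oxidized peroxiredoxin and thioredoxin, had log2 fold changes of 4.90 and 3.70, with 2.67 to 10.7 and 9.29 to 20.7 RPKM in tumor and 0.101 to 0.459 and 1.1 to 2.46 RPKM in blood. Sod2, the mitochondrial superoxide dismutase, was at 9.68 to 14.9 against 1.01 to 1.83 RPKM (log2 fold change 3.45). The NADPH oxidase, which makes superoxide, had 0 of 6 members called in edgeR (2 lower at an unadjusted p under 0.05, 0 in limma-voom, 0 in DESeq2), and its subunit Cybb was at 50.9 to 70.4 RPKM in tumor and 102 to 128 RPKM in blood (log2 fold change -0.56 ± 0.19, edgeR adjusted p = 0.0625).

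**Figure D5:**
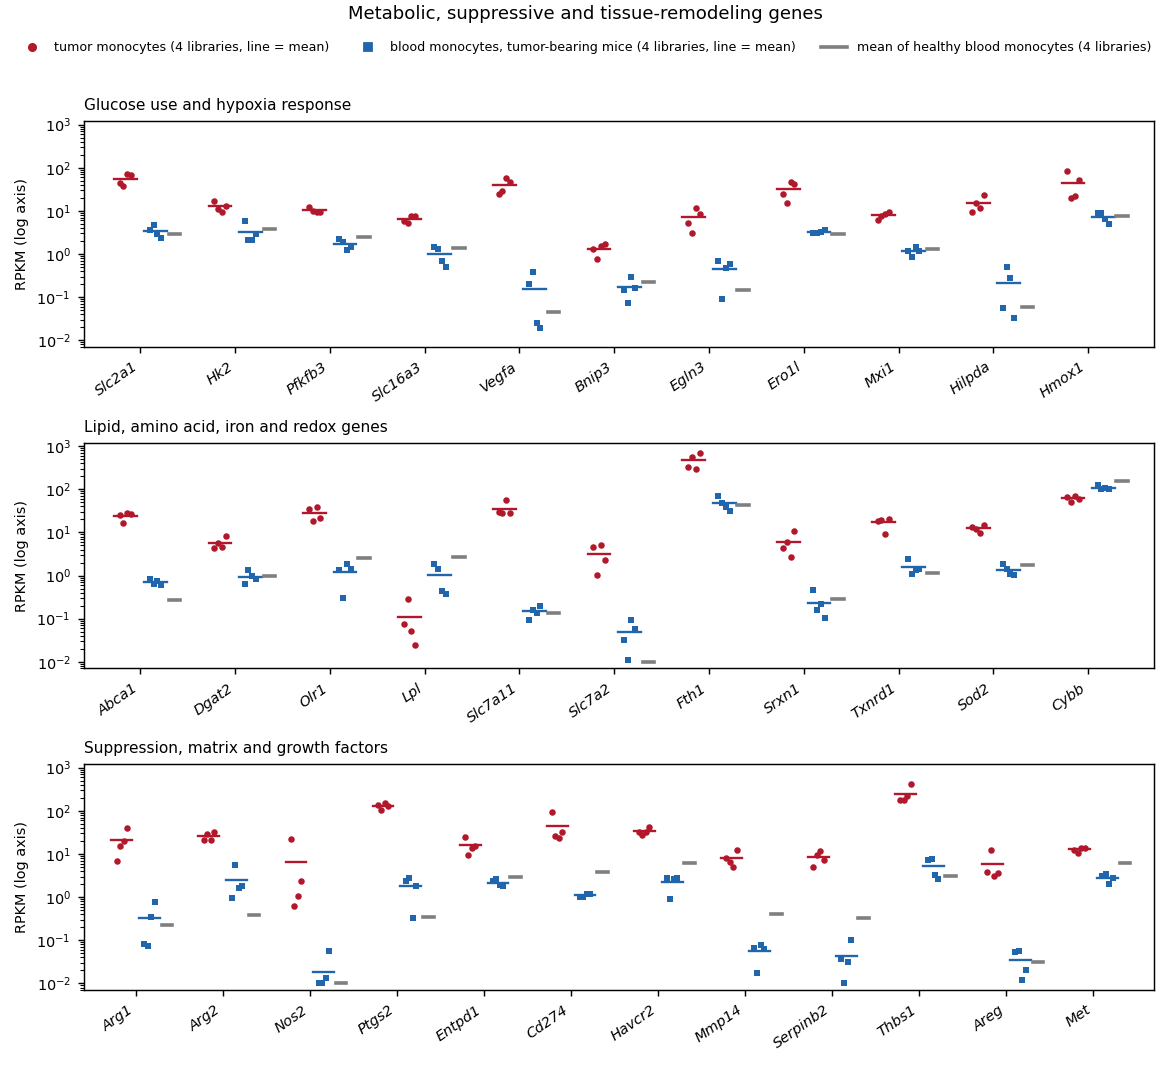
RPKM on a log axis of genes of glucose use and hypoxia, of lipid, amino acid, iron and redox metabolism, and of suppression, matrix and growth factors; symbols are as in the plot of inflammatory genes. The 4 tumor points lie above the 4 blood points for Slc2a1, Vegfa, Slc7a11, Ptgs2 and Thbs1, while the points of Lpl and Cybb lie below.

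All 7 genes of a T-cell suppression list were called higher in edgeR, 6 in limma-voom and 6 against healthy blood, where Il10 was not called (log2 fold change 3.20, adjusted p = 0.133). These are genes linked to suppression by earlier work. The study reported all of them but Arg1 as increased in tumor monocytes and neutrophils from this same sequencing. Their direction is therefore not independent evidence. In the study's co-cultures, tumor neutrophils inhibited T-cell proliferation and tumor monocytes did not. Blocking arginase, iNOS, adenosine signaling, Ptgs2 or IL-10 did not revert the inhibition by neutrophils there. The call of Nos2, described above, was lost in limma-voom (adjusted p = 0.0624), on log2 RPKM with a pseudocount of 1 (adjusted p = 0.0675) and with blood libraries 1 and 2 left out (adjusted p = 0.064). Arg1, the arginase of the cytosol, was at 7.01, 15.4, 19.7 and 40 RPKM against 0.0829, 0.0724, 0.351 and 0.776 RPKM in blood (log2 fold change 6.22 ± 0.86, edgeR adjusted p = 0.00089), and Arg2 was at 21.4, 29.1, 21.6 and 33 against 0.938, 5.4, 1.6 and 1.77 RPKM (log2 fold change 3.65 ± 0.52, edgeR adjusted p = 0.0011). Ptgs2, the cyclooxygenase of prostaglandin synthesis, was at 139, 104, 153 and 129 RPKM against 2.32, 2.75, 0.323 and 1.85 RPKM (log2 fold change 6.45 ± 0.61, edgeR adjusted p = 7.21e-05). Il10 was at 3.69, 16.5, 4.24 and 5.03 RPKM against 1.46, 0.034, 0.268 and 0.0557 RPKM (log2 fold change 4.29), with tumor library 2 high, and its call was lost without that library or blood library 3 (adjusted p = 0.0514 and 0.051) and with tumor libraries 2 and 3 both left out (adjusted p = 0.0963). Entpd1 and Nt5e, the CD39 and CD73 enzymes that turn ATP into adenosine, had log2 fold changes of 3.16 and 4.25, but Nt5e reached only 0.565 to 1.18 RPKM while Entpd1 was at 9.53 to 24.9 RPKM.

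Checkpoint ligands and tryptophan enzymes had 3 of 11 members called higher and 0 lower (1 at an unadjusted p under 0.05, 0 in limma-voom, 0 in DESeq2). Cd274, which encodes PD-L1, was at 93.9, 26, 23.3 and 32.9 RPKM in tumor and 1, 1, 1.21 and 1.15 RPKM in blood (log2 fold change 5.60 ± 0.51, edgeR adjusted p = 5.96e-05), highest in tumor library 1, where Cxcl10 and Nos2 were also highest. Havcr2, which encodes TIM-3, was at 33.1, 27.1, 32.8 and 42.8 RPKM against 2.75, 0.919, 2.61 and 2.84 RPKM (log2 fold change 4.16 ± 0.37, edgeR adjusted p = 4.84e-05), and Pvr, the poliovirus receptor CD155, at 5.43 to 7.61 against 0.497 to 0.811 RPKM (log2 fold change 3.6). In the prostaglandin and leukotriene pathway 3 of 16 were called higher and 2 lower. Ptges, the prostaglandin E synthase downstream of Ptgs2, was at 0.752 to 1.9 RPKM against 0.0163 to 0.0923 RPKM (log2 fold change 4.82), and Hpgd, which inactivates prostaglandins, fell from 5.5 to 9.36 RPKM in blood to 0.896 to 2.96 RPKM in tumor (log2 fold change -1.72 ± 0.39, edgeR adjusted p = 0.0133). The other 2 called genes of that list beside Ptgs2 encode the receptors Ptger2 (higher) and Ptgir (lower). Purinergic genes had 6 of 16 called higher and 0 lower (3 at an unadjusted p under 0.05, 1 in limma-voom, 1 in DESeq2). The adenosine receptor genes Adora2b and Adora2a were at 18.4, 17.3, 20.8 and 17.1 RPKM and 1.5, 3.17, 2.28 and 3.14 RPKM in tumor, and at 3.2, 3.13, 1.18 and 1.21 RPKM and 0.633, 0.324, 0.224 and 0.0329 RPKM in blood (log2 fold changes 3.35 and 3.31).

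Matrix remodeling and protease genes were called higher for 16 of 30 members and lower for 0 (3 at an unadjusted p under 0.05, 0 in limma-voom, 1 in DESeq2), with a median log2 fold change of 3.71. Mmp14, a membrane-bound collagenase, was at 8.23, 6.48, 4.99 and 12.2 RPKM in tumor and 0.0677, 0.0175, 0.0754 and 0.0637 RPKM in blood (log2 fold change 7.38 ± 0.49, edgeR adjusted p = 9.69e-06). Timp1, an inhibitor of matrix proteases, was at 5.68, 7.11, 6.15 and 6.61 RPKM in tumor and had at most 3 counts in each blood library. Serpinb2, an inhibitor of plasminogen activation, was at 4.96, 9.49, 11.4 and 7.31 RPKM in tumor and 0.036, 0.00818, 0.0311 and 0.101 RPKM in blood (log2 fold change 7.84 ± 0.64, edgeR adjusted p = 2.99e-05). Plau, the activator that it inhibits, was at 3.49 to 5.53 RPKM against 0.157 to 0.791 RPKM (log2 fold change 3.70), so activator and inhibitor were high together. Growth and angiogenic factors had 7 of 13 called higher and 1 lower. Areg, an epidermal growth factor receptor ligand, was at 3.89, 12.6, 3.04 and 3.65 RPKM against 0.012 to 0.0569 RPKM (log2 fold change 7.38 ± 0.73, edgeR adjusted p = 9.52e-05), and Hbegf at 0.305, 2.55, 2.41 and 1.98 against 0.00617 to 0.0519 RPKM (log2 fold change 6.58). Areg was highest in tumor library 2, the library with the most epithelial markers, and both genes were higher in sorted tumor epithelium (14.1 and 14.2 RPKM). Met, the receptor for hepatocyte growth factor, was at 12.2, 10.5, 14.1 and 14 RPKM against 3.11, 3.37, 2.04 and 2.82 RPKM (log2 fold change 2.43 ± 0.23, edgeR adjusted p = 7e-05). Of the semaphorin and VEGF co-receptors, Nrp1 was lower (1.48 to 1.67 RPKM in tumor, 4.9 to 8.65 RPKM in blood, log2 fold change -1.72) and Nrp2 higher (1.47 to 2.53 against 0.26 to 1.11 RPKM, log2 fold change 2.30).

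A list of 25 genes held immediate early genes and others, chaperones among them, that cell isolation from tissue can also induce. Of these 25, 12 were called higher and 0 lower (0 at an unadjusted p under 0.05, 0 in limma-voom, 0 in DESeq2). The 13 not called included Fos, at 17.7 to 57.7 RPKM in tumor and 17.7 to 66.8 RPKM in blood (log2 fold change 0.17 ± 0.44, edgeR adjusted p = 0.833). Ier3 was at 68.6, 69.4, 47 and 86 RPKM in tumor and 13.5, 3.6, 3.58 and 3.37 RPKM in blood (log2 fold change 3.77 ± 0.46, edgeR adjusted p = 0.000428), and Hspa5, the chaperone BiP of the endoplasmic reticulum, at 209, 285, 259 and 285 RPKM against 27.4, 20.1, 29 and 33.5 RPKM (log2 fold change 3.49 ± 0.22, edgeR adjusted p = 7.22e-06). Jun was at 19.9, 36.7, 17.9 and 45.3 RPKM against 21.2, 7.79, 6.6 and 7.95 RPKM, with overlap through blood library 1 (log2 fold change 1.71, 1.47 and not called without tumor library 4). Without tumor library 4 the list had 8 members called higher, and with blood libraries 1 and 2 left out it had 19. Over all genes these settings called 1070 and 910 higher. In the Bcl2 family 5 of 16 genes were called higher and 0 lower (2 at an unadjusted p under 0.05, 1 in limma-voom, 1 in DESeq2). Bcl2a1b and Bcl2a1d, near-identical copies of the survival gene A1 whose reads may be split, were at 16.8, 28.3, 25.5 and 35.6 RPKM and 20.8, 31.1, 39.3 and 39.4 RPKM in tumor, and at 0.365 to 1.93 RPKM and 0.419 to 2.17 RPKM in blood. Bcl2l11, which encodes the death-promoting protein BIM, was also higher, at 36, 39.6, 57.4 and 44.8 RPKM against 7.2, 5, 4.24 and 5.85 RPKM (log2 fold change 3.27 ± 0.25, edgeR adjusted p = 1.97e-05), and Mcl1 was at 68.1 to 93 RPKM against 43 to 57.7 RPKM, short of the fold threshold (log2 fold change 0.89 ± 0.17, edgeR adjusted p = 0.00518).

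Cell cycle genes had 3 of 20 called higher (Cdkn1a, Ccnd1 and Ccnd2) and 2 lower (Ccnd3 and Aurkb). Cdkn1a, the cell-cycle inhibitor p21, was at 96, 96.1, 53.7 and 143 RPKM in tumor and 9.54, 5.98, 2.81 and 3.41 RPKM in blood (log2 fold change 4.42 ± 0.42, edgeR adjusted p = 8.14e-05), whereas Ccnd3, which encodes cyclin D3, fell from 1.74 to 2.24 RPKM to 0.127 to 0.351 RPKM (log2 fold change -2.60 ± 0.37, edgeR adjusted p = 0.000974). Mki67, the proliferation marker, was at 2.48 to 4.36 RPKM against 2.2 to 4.5 RPKM, with overlap (log2 fold change 0.35 ± 0.30, edgeR adjusted p = 0.475).

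Whether the step from blood to tumor differed between monocytes and neutrophils of tumor-bearing mice was tested as an interaction over 16 libraries, in which 690 of 17465 genes (3.95%) were called. Several monocyte and neutrophil libraries carry the same code in their titles, and the title of a blood neutrophil library names more than a single animal. The fit had no term for the animal, so the interaction p-values ignore this pairing. A positive value below means that the rise in monocytes exceeded that in neutrophils. Of 160 named genes with an interaction value, 27 were called, and 14 of these in every alternative that tested them. Many genes were named for a large change in these same monocyte libraries. The number called and their sign are therefore not independent of that choice. Inhba had an interaction of 6.50 ± 0.84 (adjusted p = 0.000629) on the log2 scale, with 9.27 to 10.2 RPKM in tumor neutrophils and 1.83 to 3.16 RPKM in blood neutrophils. Vegfa had one of 5.46 ± 0.98 (adjusted p = 0.00574) and Slc7a11 one of 4.41 ± 0.78 (adjusted p = 0.00518), and both genes also rose in neutrophils (log2 fold changes 2.90 and 3.88). Slc7a11 had means of 92.1 RPKM in tumor and 6.98 RPKM in blood neutrophils, against 35.7 and 0.149 RPKM in monocytes. For Vegfa these means were 7.72 and 1.12 RPKM in neutrophils, against 39.5 and 0.156 RPKM in monocytes. For the interleukin-1 pair the interaction was 4.63 ± 0.80 (adjusted p = 0.00477) for Il1b and 3.69 ± 0.61 (adjusted p = 0.00383) for Il1rn. Blood neutrophils already held 98.0 to 364 RPKM of Il1b and 11.9 to 24.5 RPKM of Il1rn, and tumor neutrophils held 291 to 1130 RPKM and 93.5 to 221 RPKM.

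Tlr5 fell in neutrophils (log2 fold change -1.94, edgeR adjusted p = 0.0206) and had an interaction of 4.89 ± 0.71 (adjusted p = 0.00182). Mxi1 had an interaction of 3.79 ± 0.44 (adjusted p = 0.000555), with a log2 fold change of -0.69 in neutrophils (edgeR adjusted p = 0.201). Cd86 had one of 3.54 ± 0.69 (adjusted p = 0.00936), with -0.14 on the log2 scale in neutrophils (edgeR adjusted p = 0.902), and C5ar1 one of 3.53 ± 0.69 (adjusted p = 0.0092), with 0.89 (edgeR adjusted p = 0.294). Clec4d had one of 3.86 ± 0.76 (adjusted p = 0.0095) and Cd9 one of 3.97 ± 0.61 (adjusted p = 0.00208). The opposite sign was found for 3 cell-surface genes, with Icam1 at -4.68 ± 0.80 (adjusted p = 0.00427), Met at -4.16 ± 0.63 (adjusted p = 0.00196) and Nrp1 at -4.50 ± 0.98 (adjusted p = 0.0172). Icam1 and Met rose far more in neutrophils (log2 fold changes 6.43 and 6.73), from 0.178 to 0.675 RPKM and from 0.000636 to 0.02 RPKM in blood neutrophils to 17.6 to 38.1 RPKM and 0.823 to 2.08 RPKM in tumor neutrophils.

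In healthy blood monocytes the genes above had the following background levels. The mean in healthy blood was 6.5 RPKM for Il1b, 0.0902 for Il1a, 0.046 for Vegfa, 0.0481 for Inhba, 2.93 for Slc2a1, 0.342 for Ptgs2 and 4.47 for Nfkbia. Ccr2 was at a mean of 93.9 RPKM and Cx3cr1 at 16.7 RPKM in healthy blood. S100a8 was at 31, 49.4, 68.3 and 49.9 RPKM in blood of tumor-bearing mice, 12.9, 3.86, 19.3 and 8.6 RPKM in tumor and 1.78 to 9.37 RPKM in healthy blood. It was called lower in tumor (log2 fold change -1.86, adjusted p = 0.0242), a call lost without tumor library 4 or blood library 3 or 4 (adjusted p from 0.0504 to 0.0683).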

How the data were processed

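Cells had been sorted from tumors and blood, RNA extracted with PicoPure and amplified with NuGEN Ovation V2, and libraries read as single reads on an Illumina HiSeq. The study's methods and the submitters' processing notes name bcl2fastq, Bowtie 2, limma, the HTSstation pipeline and the mm10 build; the annotation release, the treatment of reads that map to several places and the use of strand are not given in the sources used here. The authors deposited an estimated count per gene made from the aligned reads, and 99.58% of the nonzero values are not whole. The authors also deposited RPKM values, scaled to gene length and library depth. Amplification of small amounts of RNA adds spread to low counts.

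Counts were rounded and genes filtered with filterByExpr. Tumor monocytes (4 libraries) and blood monocytes (4 libraries) were compared with edgeR 4.0.16 (TMM, robust quasi-likelihood F test) in R 4.3.3. Genes were called past a log2 fold change of 1.5 in either direction when p, adjusted over all genes tested (Benjamini-Hochberg), was below 0.05, and ± after a log2 fold change is its standard error. Alternatives were limma-voom (limma 3.58.1), DESeq2 1.42.0, other normalizations, filters, fits and references, log2 RPKM with pseudocounts of 1 and 0.1, a block on the replicate number and the loss of each library. Leaving out tumor libraries 2 and 3, or blood libraries 1 and 2, was chosen after seeing the data. On counts simulated for 14562 genes, the fit recovered 43.2% of 95 genes changed by 2 and 80.4% of 92 genes changed by 4 on the log2 scale, with 5 false calls.

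Named genes are the 10 called genes per direction with the largest change, no overlap and log2 CPM averaging 5 or more, anchor genes of the lists, up to 4 further called members per list (log2 CPM averaging 4 or more) and 7 T-cell suppression genes. Members listed to complete a count of 5 or fewer were named after their values were seen. The members and the 44 gene lists were chosen with earlier results of these data known. A symbol was given for 45143 of the 45706 genes deposited. Some genes of these lists are not reported here.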

Additional observations from a re-analysis of the deposited data

Results flagged for a closer look

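In groups of 4 libraries, 24 of 326 groups tested (7.36%) had 1 library far from the other 3. For normally distributed values chance gives about 1 in 20, and the values here were tested without a log scale. Blood library 1 was the distant one for 11 of the 24 groups. It was high for Egr2 (0.92 RPKM), Egr1 (8.84 RPKM), Il6 (0.712 RPKM), Il10 (1.46 RPKM), Cxcl1 (0.455 RPKM), Cxcl10 (3.61 RPKM), Nrp2 (1.11 RPKM), Jun (21.2 RPKM), Ier3 (13.5 RPKM) and Cybb (128 RPKM) and low for C1qa (0 RPKM). For C1qa the other blood libraries were at 0.000433 to 0.00052 RPKM, at the floor of the counts, so that flag carries no information. Tumor library 1 was high for Acod1 (142 RPKM), Nos2 (21.7 RPKM), Flt3 (0.406 RPKM), Cxcl10 (382 RPKM) and Cd274 (93.9 RPKM). Tumor library 2 was high for Il10 (16.5 RPKM) and Areg (12.6 RPKM) and low for Csf1 (0.752 RPKM), and tumor library 3 was high for Ngp (1.1 RPKM) and Slc7a11 (57.3 RPKM). Blood library 2 was high for Cd44 (90.0 RPKM) and low for Havcr2 (0.919 RPKM), and blood library 4 was high for Acod1 (0.195 RPKM).

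The step from blood to tumor differed between monocytes and neutrophils, by the edgeR interaction test, for 27 of 160 named genes (3.95% of all genes). Many of them were named for a large change in the same monocyte libraries, so this number and the signs are not independent of the choice. The difference on the log2 scale, monocytes minus neutrophils, was 4.25 for Il1a, 5.18 for Dab2, 5.08 for Acod1, 7.40 for Nos2, 6.50 for Inhba, 5.46 for Vegfa, 2.56 for Itgax, 3.97 for Cd9, 3.54 for Cd86, 4.63 for Il1b, 3.69 for Il1rn, 3.53 for C5ar1, 4.48 for C3ar1, 2.45 for Slc2a1, 3.79 for Mxi1, 4.89 for Tlr5, 1.93 for Clec4e, 3.86 for Clec4d, 3.19 for Trem1 and 4.41 for Slc7a11. It was negative for Calhm2 (-4.55), Plac8 (-2.23), Nr4a1 (-3.63), Icam1 (-4.68), Met (-4.16), Nrp1 (-4.50) and Sod2 (-1.82). In the alternative settings run for each gene, 14 of the 27 kept the interaction call in every one. The call was lost for Clec4e in 16 of 20 settings, Acod1 in 14 of 19, Calhm2 in 14 of 19, Dab2 in 11 of 19, Trem1 in 11 of 20, Nos2 in 10 of 19, Il1a in 9 of 19, Nr4a1, Plac8 and Sod2 in 7 of 20 each, Slc2a1 in 4 of 20, C3ar1 in 3 of 19 and Itgax in 2 of 20.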

How the results depend on the processing

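Of 160 named genes, 96 kept their direction and their side of the threshold in every alternative that tested them. The number of genes called was 1781 and ranged from 1509 to 1848 when 1 library was left out. DESeq2 called 971 genes lower. Requiring 10 counts in every library left 775 called higher, and without a fold threshold 959 were called lower. A fit over 40 libraries called 2803 genes, 1955 of them higher. On log2 RPKM with a pseudocount of 1, 525 were called (382 higher, 143 lower), and with 0.1, 1040 were called lower. Without tumor libraries 2 and 3, 390 were called lower, and without blood libraries 1 and 2, 1171 were called, 261 of them lower. Calls higher made up 66.6% of all calls, 60.5% in limma-voom, 59.7% in DESeq2 and 72.8% and 45.2% on log2 RPKM with pseudocounts of 1 and 0.1. The interaction called 690 genes, 454 with 10 counts in every library and 346 (without T_PG replicate 2) to 1327 (without T_CG replicate 2) when 1 library was left out. The cause of these shifts was not tested.

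Same-numbered tumor and blood libraries did not deviate together (correlations -0.106, -0.087, -0.054 and -0.143), and only library 1 shares a title code. With the replicate number as a block, 1376 genes were called (968 higher, 408 lower) and 397 in the interaction. The block gave Csf1r 0.05 and Ifit1 -0.81.

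Direction turned, on the log2 scale, for 11 genes. Against healthy blood the values were 2.26 for Chil3, -0.24 for H2-Ab1, -2.25 for Ifit1, -0.08 for Isg15, 1.85 for S100a8 and 1.29 for Ltf. In limma-voom they were 0.01 for Csf1r and -0.73 for Ifit1, which was at -0.14 and -0.69 on log2 RPKM with pseudocounts of 1 and 0.1. Leaving out 1 library gave -0.98 (tumor 1) to 0.09 (blood 3) for Chil3, -0.36 (blood 3) to 0.37 (blood 2) for Csf1r, -0.28 (blood 3) to 0.16 (blood 1) for Spi1, with 0.01 without tumor 2, and -0.99 (tumor 1) to 1.32 (blood 2) for Ifit1. Without blood libraries 1 and 2, Csf1r was at 0.77, Irf8 at 0.03, Spi1 at 0.42 and Mki67 at -0.03, and without tumor libraries 2 and 3, Spi1 was at 0.02 and C3 at 0.05. With 4 libraries a side and amplified RNA, changes of low genes may be missed at this depth.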
